A study of Mus musculus with 12 samples.

Results

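The comparison set neurons derived from mouse embryonic stem cells that received a WNT agonist late in differentiation, CHIR_11-16, against neurons kept under WNT and BMP inhibition throughout, WiBi_0-16. Both groups were taken by their titles, with 2 arrays each, making 4 of the 12 arrays of the study. CHIR_11-16 cultures were kept from day 0 to day 11 in 2.5 µM of 53AH, which inhibits WNT signalling, and 0.25 µM of LDN193189, which inhibits BMP receptors, followed by the agonist CHIR from day 11 to day 16. The labels give 3 µM of CHIR for another culture group (CHIR_8-16) and state no dose for CHIR_11-16. In WiBi_0-16 both inhibitors were given from day 0 to day 16. All these cultures were male, of 129/Ola background, and were harvested at day 16. The other culture groups had CHIR from day 8 (CHIR_8-16) or both inhibitors until day 11 and neither compound named after it (WiBi_0-11), and 4 arrays measured tissues of E15 embryos. The study concerned stem cell-derived neurons of hippocampal or cortical identity.

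At day 11 the agonist was added and both inhibitors were ended in the same group, so the effect of adding CHIR and that of ending WNT and BMP inhibition cannot be told apart in this comparison. Each array held RNA pooled from 3 sets of experiments, amplified from 50 ng, and the labels do not say whether both pools of a group came from separate cultures. Unless stated otherwise, p-values and standard errors (SE) came from a fit over the arrays of all culture groups, with slide as a block. They measure the spread left after slide differences, pooled over those groups, and not the gap between the arrays of a group. That spread may be technical. The n given beside an SE counts the arrays of each group compared, not the arrays in the fit. The arrays were paired by slide: all culture arrays numbered 1 shared slide 2, and those numbered 2 shared slide 3. In bulk RNA, fewer cells of a type and less RNA per cell cannot be told apart.

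In the absence of a WNT ligand, a destruction complex that holds AXIN, APC and the kinase GSK3 marks beta-catenin for degradation. Ligand binding to Frizzled and LRP receptors, or direct inhibition of GSK3 by CHIR, lets beta-catenin enter the nucleus and act with TCF/LEF factors on target genes, several of which encode feedback inhibitors of the pathway. BMP ligands act through receptor kinases and SMAD proteins on targets such as the Id genes. In the embryonic telencephalon, WNT and BMP ligands come from the cortical hem and roof plate, next to the field that forms the hippocampus.

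Levels are log2 processed signals relative to the 75th percentile of the array, and differences are CHIR_11-16 minus WiBi_0-16 on that log2 scale. No gene passed the test: limma with slide as a block called 0 of 25538 genes (0.0%) at a Benjamini-Hochberg adjusted p under 0.05, and 0 without the block. The smallest adjusted p was 0.0685, shared by 77 genes, and 757 genes had an adjusted p under 0.1, of which 484 were higher and 273 lower in CHIR_11-16. At an unadjusted p under 0.05 there were 5726 genes (22.4%), of which 3021 were higher (11.8%) and 2705 lower (10.6%), and without the block there were 2579 (10.1%). Other settings made calls. A variance prior that follows the signal called 1423 genes (5.57%), of which 1026 were higher (4.02%) and 397 lower (1.55%). Background correction with quantile normalization called 475 (1.86%), of which 289 were higher (1.13%) and 186 lower (0.728%). Restriction to the 22563 genes above background on all 8 culture arrays gave 162 calls (0.718%), with 92 higher (0.408%) and 70 lower (0.31%). The deposited series values gave 128 calls (0.501%), with 78 higher (0.305%) and 50 lower (0.196%). Across all genes 31.5% were higher and 39.4% lower in CHIR_11-16 on both slides. The groups did not overlap, with both CHIR_11-16 arrays above both WiBi_0-16 arrays, at 21.1% of genes, and with both below at 18.3%. At least 2-fold differences covered 3.22% of genes higher and 2.0% lower. The median difference was -0.05 over all genes. None of the genes below passed the main test, and each is given by its values. Counts given for a list below are to be read beside these shares over all genes.

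On the arrays compared, 71.18% and 66.29% of spots were well above background in CHIR_11-16, against 66.77% and 65.61% in WiBi_0-16, and 0 spots were saturated. The number of arrays limits the precision of each value. Genes with a symbol are here those whose name was not of a predicted, clone-derived or accession-like form. They made up 60.3% of the genes tested. They made up 1930 of the 3021 genes higher and 1512 of the 2705 genes lower in CHIR_11-16 at an unadjusted p under 0.05.

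**Figure D1:**
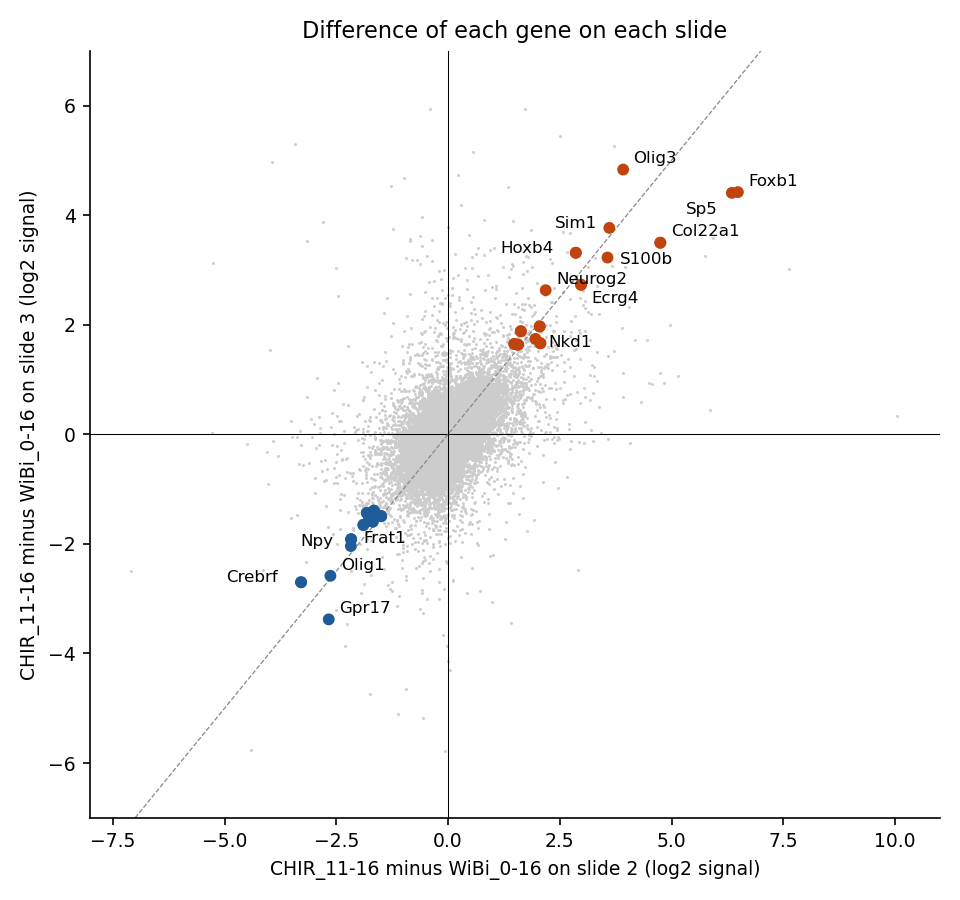
Difference between CHIR_11-16 and WiBi_0-16 on slide 2 (horizontal axis) and on slide 3 (vertical axis), in log2 signal, with 1 grey point for each of the 25538 genes. Red points mark named genes higher and blue points named genes lower in CHIR_11-16. Across all genes 70.9% had the same sign on both slides (r = 0.49), and the dashed line marks equal difference. Genes marked for their smallest p lie near it by selection, since a small p in that fit needs similar differences on both slides. Sp5 lies at 6.35 and 4.41.

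Among genes with a symbol, those with the smallest p-values in the higher direction were led by Ecrg4, which encodes a secreted peptide precursor. Its levels were -1.26 and -1.89 in CHIR_11-16, against -4.23 and -4.62 in WiBi_0-16, a difference of 2.85 ± 0.22 (SE, n = 2 arrays each; limma adjusted p = 0.0685), or 7.22-fold. Both CHIR_11-16 arrays lay above both WiBi_0-16 arrays. Col22a1, a collagen gene, had levels of 1.58 and 1.37 in CHIR_11-16, against -3.17 and -2.12 in WiBi_0-16, a difference of 4.12 ± 0.35 (17.4-fold). The long non-coding RNA Zfas1 had levels of 4.49 and 4.50 in CHIR_11-16, against 3.01 and 2.85 in WiBi_0-16, a difference of 1.57 ± 0.13. For both genes the arrays of the groups were separate by far more than the gap within either group. Lypd6, a membrane-anchored protein known to modulate WNT signalling in fish embryos, differed by 1.86, but another of its probes gave 0.44.

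In the lower direction Frat1 came first by p among genes with a symbol. Frat1 encodes a protein that binds GSK3 and withdraws it from the destruction complex. Its levels were -0.63 and -0.53 in CHIR_11-16, against 1.54 and 1.38 in WiBi_0-16, a difference of -2.04 ± 0.13 (SE, n = 2 arrays each; limma adjusted p = 0.0685). In WiBi_0-11 it stood at 1.55 and 1.45, close to WiBi_0-16. It stood at -1.32 and -1.24 in CHIR_8-16, so all 4 arrays with agonist lay below all 4 arrays without it. The Krüppel-like factor gene Klf14 differed by -1.64, Ubald1 by -1.77, Nipal3 by -1.66 and the alpha-tubulin gene Tuba3a by -1.53. Over the alternatives Klf14 ran from -1.67 to -0.71. Vmn1r65, a vomeronasal receptor gene, differed by -1.49, and Olfml3, a secreted olfactomedin-like protein, by -1.63 with -0.33 at its other probe. Tuba3a, Vmn1r65 and Olfml3 were lowest in hippocampus and highest in midbrain among the E15 arrays, and higher on slide 3 in every culture group. Many probes without a symbol and further genes, such as Rnf112, Spef2 and Myo1h, shared this pattern, so these genes may not be separate observations. The cause of the pattern was not tested. Crebrf, a regulator of the CREB3 factor, was not well above background in CHIR_11-16 and was at least 3.16-fold higher in WiBi_0-16.

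Where a probe was not well above background on either array of a group, a bound replaces the fold. It sets the mean of the brighter group against the lowest signal well above background on each array of the dimmer group, or the dim probe's own signal where that was higher. By this rule Hoxb4, Otx1 and Tcaf2, further genes among those of smallest p, were at least 1.89-fold, 2.65-fold and 1.94-fold higher in CHIR_11-16. Hsd11b2, which encodes an enzyme that inactivates glucocorticoids, differed by 2.01 and allowed no bound above 1.

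Direct targets of beta-catenin were measured as a list of 20 genes, of which 18 passed the filter on dim probes (Dkk4 and T did not). In CHIR_11-16, 11 of the 18 were higher on both slides and 1 was lower on both, and 9 were higher and 1 lower at an unadjusted p under 0.05. Their median difference was 0.86, with 1.13 on slide 2 and 0.51 on slide 3, beside -0.05 over all genes. Over the 15 alternative settings the median ran from 0.61 to 1.14. Of the 18, 15 were above background on all 8 culture arrays, with a median of 0.84. Tcf7 and Dkk1 were dim on both WiBi_0-16 arrays, and setting such genes at their background floor gave a median of 0.81 over the 18.

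Sp5, a zinc finger factor and direct target of the pathway, had the greatest difference of the 18. Its levels were 0.72 and 0.26 in CHIR_11-16, against -5.63 and -4.15 in WiBi_0-16, a difference of 5.38 ± 0.59 (SE, n = 2 arrays each; limma adjusted p = 0.0685), or 41.6-fold. Its level on the first WiBi_0-16 array was close to the lowest signal well above background there, -5.91, so the fold is imprecise. Over the alternatives the difference ran from 3.75 to 6.28. In WiBi_0-11, Sp5 stood between the groups, at -3.66 and -1.62. Nkd1, which encodes a feedback inhibitor that binds Dishevelled, had levels of 1.50 and 1.31 in CHIR_11-16, against -0.45 and -0.44 in WiBi_0-16, a difference of 1.85 ± 0.20, and its other probe gave 1.59. Both genes passed under each of the 4 settings with calls given above, which were picked because they made calls. Ccnd1, cyclin D1 of the G1 phase, had levels of 2.74 and 2.33 in CHIR_11-16, against 0.50 and 1.12 in WiBi_0-16, a difference of 1.72 ± 0.27. Tnfrsf19, a receptor of the TNF family, had levels of 2.40 and 1.90 in CHIR_11-16, against -0.04 and 0.35 in WiBi_0-16, a difference of 1.99, with 1.05 at its other probe. For these 4 genes the arrays of the groups did not overlap.

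The TCF/LEF factor genes differed in how clearly the groups parted. Tcf7 was not well above background on either WiBi_0-16 array and was at least 3.39-fold higher in CHIR_11-16. Lef1 had levels of 2.78 and 1.79 in CHIR_11-16, against 1.88 and 0.28 in WiBi_0-16, a difference of 1.21 ± 0.22 (adjusted p = 0.0979). The groups overlapped for Lef1 across slides, although CHIR_11-16 was higher on each slide, and its other probe gave 2.60. Lef1 was higher still in CHIR_8-16, at 4.22 and 3.36.

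Feedback inhibitors were uneven. Axin2, the scaffold of the destruction complex and a widely used reporter of the pathway, had levels of -0.38 and -0.55 in CHIR_11-16, against -1.35 and -0.84 in WiBi_0-16, a difference of 0.63 ± 0.35 (adjusted p = 0.339). The groups did not overlap, but the difference was under 2 SE, and another probe gave 0.22. Apcdd1, a membrane inhibitor of WNT signalling, differed by 1.23, and Rnf43, a ubiquitin ligase that removes Frizzled receptors, by 0.87. Dkk1, a secreted inhibitor that binds LRP receptors, was not well above background in WiBi_0-16 and was at least 1.72-fold higher in CHIR_11-16. Nkd2, related to Nkd1, differed in the other direction, by -0.79. Wif1 and Lgr5 differed by 0.84 and 0.48, with Lgr5 of opposite sign on each slide. Notum, Myc, Ephb3, Znrf3 and Cdx1 lay between -0.18 and 0.35.

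**Figure D2:**
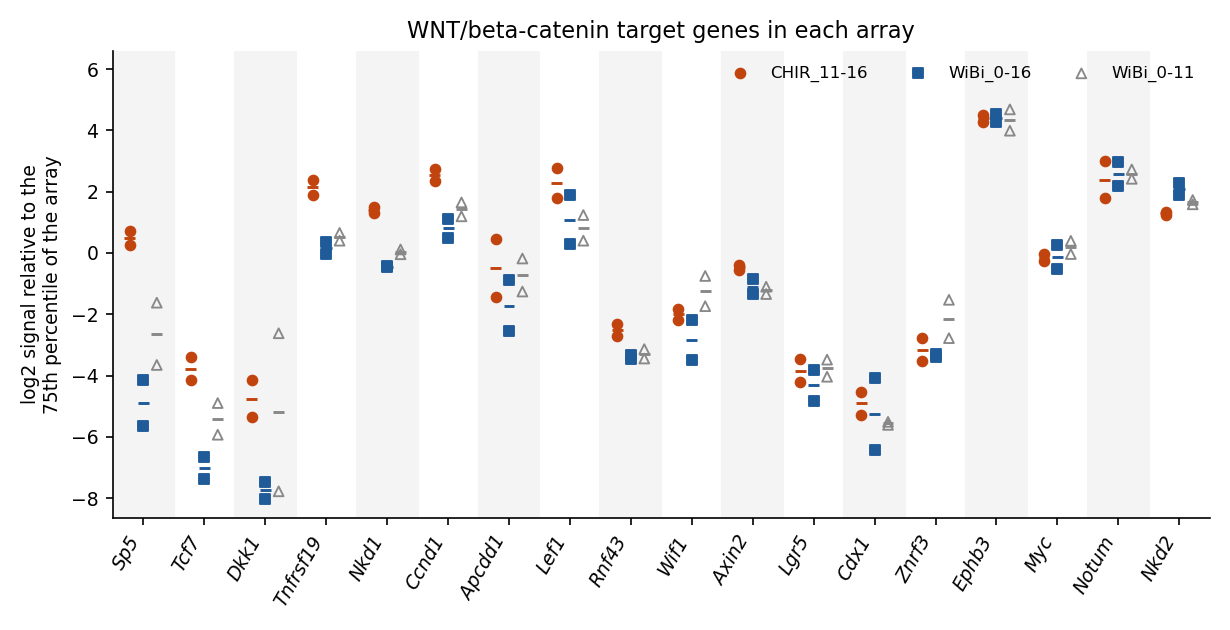
Level of each measured WNT/beta-catenin target gene in every array of CHIR_11-16 (red circles), WiBi_0-16 (blue squares) and WiBi_0-11 (open grey triangles), as log2 signal relative to the 75th percentile of the array, with short lines at the group means. Genes run from the greatest to the smallest difference between CHIR_11-16 and WiBi_0-16. Sp5 sits at 0.72 and 0.26 in CHIR_11-16, far above WiBi_0-16, and Tcf7 and Dkk1 were not well above background in WiBi_0-16.

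The promoters of the targets with a TCF/LEF core motif are shown because their genes include the target with the greatest difference. The letters CTTTGA and their reverse complement TCAAAG were searched on both strands in the 250 bases before the start of each gene in RefSeq (GRCm38.p6). The motif was present in 4544 of 32851 such windows (13.8%). Of the 18 measured targets 11 had a window in the table, and 4 of these held the motif in 4 of their 17 windows: Sp5, Tnfrsf19, Dkk1 and Lef1. The windows of Axin2, Nkd1, Tcf7, Rnf43, Ephb3, Nkd2 and Wif1 did not hold these letters. Capitals mark the motif, which lies 204 and 104 bases before the start in Sp5 (chr2:70474673-70474922, plus strand), 201 bases before 1 of the 2 starts of Tnfrsf19 (chr14:61037988-61038237, minus strand), 174 and 117 bases before it in Dkk1 (chr19:30549497-30549746, minus strand) and 180 and 120 bases before 1 of 4 starts of Lef1 (chr3:131156044-131156293, plus strand).
Sp5: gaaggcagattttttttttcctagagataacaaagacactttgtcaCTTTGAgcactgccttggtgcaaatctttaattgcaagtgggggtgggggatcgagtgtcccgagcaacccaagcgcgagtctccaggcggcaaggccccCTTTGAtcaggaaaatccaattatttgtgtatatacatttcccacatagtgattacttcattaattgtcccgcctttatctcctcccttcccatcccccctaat
Tnfrsf19: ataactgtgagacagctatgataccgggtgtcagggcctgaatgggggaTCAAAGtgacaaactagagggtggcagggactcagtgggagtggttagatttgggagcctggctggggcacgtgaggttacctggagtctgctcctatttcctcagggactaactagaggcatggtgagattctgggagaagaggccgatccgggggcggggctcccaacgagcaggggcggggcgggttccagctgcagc
Dkk1: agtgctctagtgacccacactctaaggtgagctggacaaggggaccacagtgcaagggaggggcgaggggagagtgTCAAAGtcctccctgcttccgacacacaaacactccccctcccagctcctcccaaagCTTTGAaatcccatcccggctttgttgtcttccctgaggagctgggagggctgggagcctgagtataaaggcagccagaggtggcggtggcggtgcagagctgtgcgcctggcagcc
Lef1: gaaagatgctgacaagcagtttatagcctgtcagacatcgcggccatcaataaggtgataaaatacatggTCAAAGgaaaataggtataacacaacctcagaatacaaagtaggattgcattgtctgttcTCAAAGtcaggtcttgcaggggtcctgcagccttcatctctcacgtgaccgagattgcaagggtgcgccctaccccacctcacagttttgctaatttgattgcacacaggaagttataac

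WNT ligands differed little as a list: 14 of 19 were measured, with a median difference of -0.14, and 3 were higher and 8 lower on both slides. Wnt10a was the exception in size, not well above background in WiBi_0-16 and at least 3.49-fold higher in CHIR_11-16, where its levels were -3.72 and -3.75. Wnt5b differed by 0.76 and Wnt8b, a ligand of the hippocampal primordium, by -0.37. Of 26 receptors and intracellular components, all measured, 13 were higher and 10 lower on both slides, with a median of 0.06. The receptor genes Fzd7 and Fzd2 had tight groups. Fzd7 had levels of -1.13 and -1.11 in CHIR_11-16, against -2.17 and -1.98 in WiBi_0-16, a difference of 0.95 ± 0.13 (limma adjusted p = 0.0782). Fzd2 differed by 0.88, and for both genes the groups did not overlap. Their other probes gave 1.13 for Fzd7 and 1.23 for Fzd2. Of 16 secreted modulators 13 were measured, with a median of 0.36, and 9 were higher and 1 lower on both slides. Among them Sfrp4 differed by 1.30, Kremen1, a receptor for DKK proteins, by 0.52 and Dkk3 by 0.87.

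Genes that respond to BMP signalling differed upwards at the Id genes. Id1, an inhibitor of basic helix-loop-helix factors, had levels of -0.43 and -0.24 in CHIR_11-16, against -1.98 and -1.77 in WiBi_0-16, a difference of 1.54 ± 0.35 (SE, n = 2 arrays each; limma adjusted p = 0.111). Id3 had levels of -0.45 and -0.52 in CHIR_11-16, against -2.98 and -1.98 in WiBi_0-16, a difference of 1.99 ± 0.53. The groups did not overlap for either. Smad6, an inhibitory SMAD above background on 1 of the WiBi_0-16 arrays, differed by 1.43 and Id2 by 0.62, while the homeobox gene Msx1 differed by -0.77. Of 14 listed targets 13 were measured, of which 8 were higher and 2 lower on both slides, with a median of 0.36. Among 18 measured ligands, receptors and antagonists of 21 listed the median was -0.15. Fst, which encodes the activin and BMP antagonist follistatin, stood out in size with levels of -1.11 and -2.08 in CHIR_11-16, against -4.45 and -4.49 in WiBi_0-16. That difference was 2.88 ± 0.38, or 7.34-fold (adjusted p = 0.0762). The activin receptor gene Acvr2b differed by -0.86 and Bmp2 by 0.59. Of 15 genes of the cortical hem, roof plate and choroid plexus, 12 were measured, with 4 higher and 3 lower on both slides and a median of -0.09 that changed sign under 5 alternatives.

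Cell cycle genes were higher throughout the list. All 26 were measured, all 26 were higher on both slides, and 23 had an unadjusted p under 0.05. The arrays of the groups did not overlap for 25 of the 26. The median difference was 0.79, with 1.15 on slide 2 and 0.50 on slide 3, and over the 15 alternatives it ran from 0.51 to 1.10. Ccnb2, a mitotic cyclin, had levels of 2.58 and 2.31 in CHIR_11-16, against 1.44 and 1.51 in WiBi_0-16, a difference of 0.97 ± 0.14 (limma adjusted p = 0.0829). Bub1b, a spindle checkpoint kinase, differed by 1.15 and Top2a, which untangles DNA before mitosis, by 1.02. The replication genes Mcm7 and Pcna differed least, by 0.43 and 0.55. The proliferation marker Mki67 had levels of 4.17 and 3.81 in CHIR_11-16, against 2.99 and 3.57 in WiBi_0-16, a difference of 0.71 with an adjusted p of 0.268.

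Pallial progenitor genes were also mostly higher. All 23 were measured, 15 were higher and 2 lower on both slides, and 13 were higher at an unadjusted p under 0.05, with a median of 0.51. Neurog2, the proneural factor of the dorsal telencephalon, had levels of 1.36 and 1.09 in CHIR_11-16, against -0.82 and -1.54 in WiBi_0-16, a difference of 2.41 ± 0.25 (SE, n = 2 arrays each; limma adjusted p = 0.0685), or 5.30-fold. Gli3, a repressor in the Hedgehog pathway needed for the dorsal telencephalon, differed by 1.35 ± 0.19, and its arrays did not overlap between groups. Pax6, a factor of radial glia, had levels of -0.43 and -0.47 in CHIR_11-16, against -1.73 and -1.63 in WiBi_0-16, a difference of 1.23, with 0.32 at its other probe. The intermediate filament genes Nes and Vim differed by 1.26 and 0.69, and Btg2, a marker of neurogenic divisions, by 0.89. Eomes, of intermediate progenitors, differed by 0.53 with overlapping groups. Of the cortical patterning genes, Lhx2 differed by -0.13 and Emx1 by -0.04, with overlapping groups. Emx2 had levels of 0.14 and 0.04 in CHIR_11-16, against 0.47 and 0.47 in WiBi_0-16, a difference of -0.38 with separate groups.

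Notch signalling keeps neural progenitors from differentiating. All 16 Notch pathway genes were measured, 11 were higher and 2 lower on both slides, 9 were higher and 1 lower at an unadjusted p under 0.05, and the median was 0.60. Among receptors Notch3 had levels of 1.42 and 1.46 in CHIR_11-16, against 0.29 and 0.41 in WiBi_0-16, a difference of 1.09 ± 0.12 (limma adjusted p = 0.0685). Notch2 differed by 0.50 and Notch1 by -0.16. Among modulators of the receptors Mfng, a glycosyltransferase, had levels of 3.08 and 3.05 in CHIR_11-16, against 0.71 and 1.64 in WiBi_0-16, a difference of 1.89 ± 0.26. The groups were separate for Notch3 and Mfng. The effector Hes5 differed by 1.32 and the feedback gene Nrarp by 1.52, whereas the effector Hes1 differed by 0.08. The ligand genes Dll1, Dll3 and Jag1 differed by 0.58, 0.62 and 0.79, and Jag2 by -0.53.

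**Figure D3:**
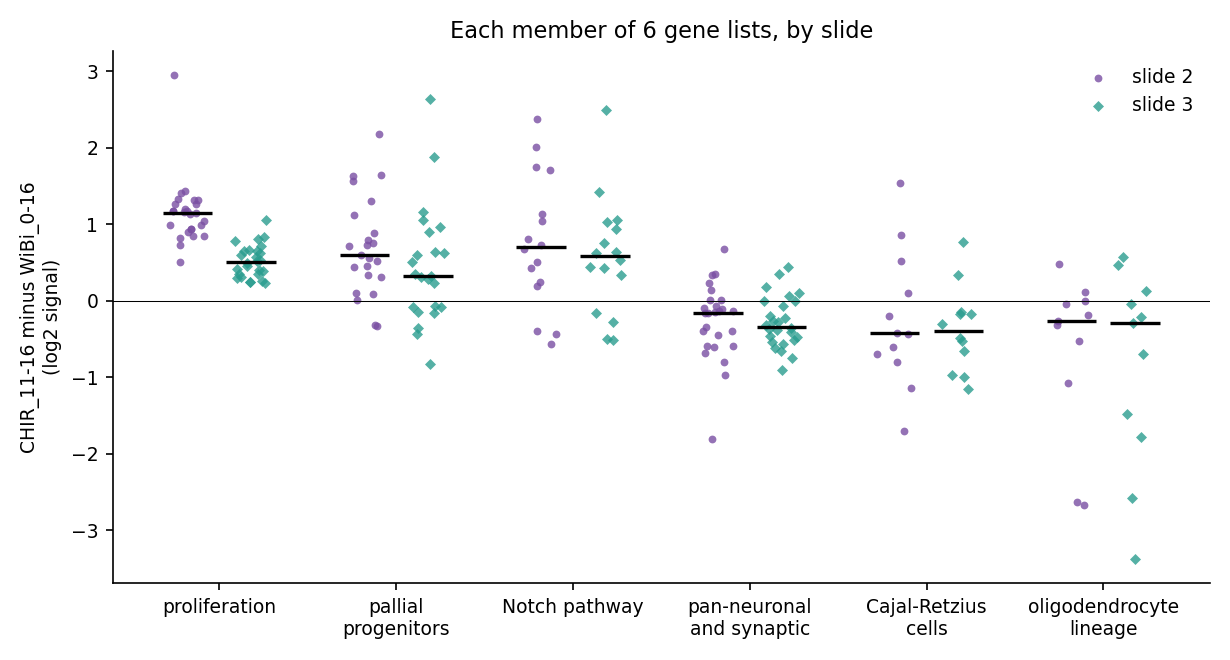
Difference between CHIR_11-16 and WiBi_0-16 for each measured member of 6 gene lists, in log2 signal, on slide 2 (purple circles) and slide 3 (green diamonds), with black lines at the medians. All 26 proliferation genes lie above 0 on both slides, and most pan-neuronal and synaptic genes lie below 0.

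All 26 pan-neuronal and synaptic genes were above background on all 8 culture arrays, as the label names these cells neurons. The neuronal tubulin gene Tubb3 had levels of 6.22 and 6.53 in CHIR_11-16, against 6.08 and 6.43 in WiBi_0-16. Of the 26, 4 were higher and 18 lower on both slides in CHIR_11-16, and 7 were lower at an unadjusted p under 0.05. The median was -0.32, with -0.16 on slide 2 and -0.34 on slide 3, and it ran from -0.52 to -0.15 over the alternatives. Gria2, a subunit of AMPA receptors, had levels of 1.31 and 0.85 in CHIR_11-16, against 2.11 and 1.76 in WiBi_0-16, a difference of -0.85 ± 0.19 (limma adjusted p = 0.107). Mapt, the microtubule protein tau, had levels of 6.58 and 6.62 in CHIR_11-16, against 7.17 and 7.13 in WiBi_0-16, a difference of -0.56 ± 0.13. The groups were separate for Gria2 and Mapt. The synaptic vesicle genes Stx1a, Vamp2 and Snap25 differed by -0.51, -0.50 and -0.72, while the early neuronal genes Dcx and Rbfox3 differed by -0.04 and -0.05. In units of the 75th percentile signal of the array, the summed linear level of the 26 genes was 702.68 and 728.47 in CHIR_11-16, against 843.26 and 889.60 in WiBi_0-16. On the same arrays the summed level of the proliferation list was 213.92 and 201.54 in CHIR_11-16, against 106.18 and 150.15 in WiBi_0-16, and its part in the lower synaptic genes was not tested.

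Markers of Cajal-Retzius cells, the early Reelin-secreting neurons of the marginal zone that arise in part from the cortical hem, were mostly lower. All 12 were measured, 2 were higher and 8 lower on both slides, and the median was -0.36. Calb2, the calcium-binding protein calretinin, had levels of -0.76 and -0.90 in CHIR_11-16, against 0.95 and 0.26 in WiBi_0-16, a difference of -1.43 ± 0.18 (SE, n = 2 arrays each; limma adjusted p = 0.0762). The homeobox gene Lhx5 had levels of 3.42 and 2.35 in CHIR_11-16, against 4.56 and 3.32 in WiBi_0-16, a difference of -1.06 ± 0.12. Its groups overlapped across slides, but it was lower in CHIR_11-16 on both. Both genes passed under each of the 4 settings with calls given above. Lhx1 differed by -0.90, Reln, which encodes Reelin, by -0.54 and Trp73 by -0.29. Cxcr4, a chemokine receptor, and Cdkn1a, a cell cycle inhibitor, were on the higher side, by 0.60 and 0.65.

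Genes of hippocampal identity showed no common direction. All 16 were measured, 4 were higher and 6 lower on both slides, and the median was -0.09 and changed sign under 3 of the 15 alternatives. Prox1, the factor of dentate granule neurons, had levels of -1.98 and -1.76 in CHIR_11-16, against -2.55 and -2.39 in WiBi_0-16, a difference of 0.61 ± 0.12 (limma adjusted p = 0.104). Its groups did not overlap. Fzd9, a Frizzled receptor of the hippocampal field, differed by 1.05 and Zbtb20, a factor of hippocampal pyramidal identity, by 0.24. Nr3c2, the mineralocorticoid receptor gene, and Dock10 differed by -1.25 and -0.82. Among 28 isocortical neuron genes the median was 0.03, with 10 higher and 9 lower on both slides. Tbr1, of deep-layer neurons, differed by -0.49 with -1.06 at its other probe. Bcl11b and Fezf2, of subcortical projection neurons, differed by 0.04 and -0.01.

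Genes at least 2-fold higher in 1 E15 tissue than in each of the other 3 gave a further set of lists, with 1 array per tissue and no spread. They hold only genes tested in the cultures, and in part overlap the lists above. Of 281 genes of E15 hippocampus 140 were higher and 60 lower on both slides, and 84 were higher and 19 lower at an unadjusted p under 0.05. Their median was 0.24, with 0.32 on slide 2 and 0.23 on slide 3, and it stayed between 0.16 and 0.37 over the alternatives. Of these genes 23 were dim on both WiBi_0-16 arrays alone, and the median was 0.21 among the 186 that were above background on all 8 culture arrays. Of 752 genes of E15 midbrain 230 were higher and 307 lower on both slides, and 90 were higher and 155 lower at an unadjusted p under 0.05. Their median was -0.08, which changed sign under 3 alternatives, and it was -0.17 among the 517 above background on all 8 culture arrays. Background correction with quantile normalization called 5 of the 752 midbrain genes higher and 46 lower in CHIR_11-16, against 23 higher and 0 lower among the 281 of hippocampus. Over all genes it called 1.13% higher and 0.728% lower. The setting restricted to genes above background on all 8 arrays called 70 genes lower (0.31%), and 35 of them met the midbrain rule. They included Vmn1r65, Vmn1r240 and probes without a symbol, so the rule does not pick midbrain identity genes alone. Of the midbrain and isthmus list given below, that setting called 0 lower. The median of 144 genes of E15 cortex was -0.15, and -0.01 among the 85 above background on all 8 arrays. For 165 genes of ventral telencephalon it was -0.07 in both cases and changed sign under 3 alternatives.

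Some regulators of other brain regions, several of them dim in WiBi_0-16, were far higher in CHIR_11-16. Olig3, a helix-loop-helix factor of the thalamus and dorsal neural tube, had levels of -1.42 and -0.58 in CHIR_11-16, against -5.34 and -5.41 in WiBi_0-16, a difference of 4.37. Only 1 WiBi_0-16 array had Olig3 well above background. Foxb1, a forkhead factor of the thalamus and mammillary body, had levels of -1.43 and -2.19 in CHIR_11-16 and was at least 13.2-fold higher than in WiBi_0-16. Sim1, a factor of the hypothalamus, was at least 3.48-fold higher. Dbx1 had levels of 2.03 and -1.04 in CHIR_11-16, against -5.60 and -4.05 in WiBi_0-16, with a wide gap between the CHIR_11-16 arrays and an adjusted p of 0.252. Of 17 diencephalon and hypothalamus genes 14 passed the filter, 2 of them dim on both WiBi_0-16 arrays alone, and Barhl2, Lhx9, Tcf7l2 and Foxd1 lay between -0.82 and 0.45. Because a gene could pass through the group where it was high, no count over these genes is drawn on.

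Among 19 measured midbrain and isthmus genes of 22 listed, 8 were higher and 7 lower on both slides, with a median of 0.05. Gata2, a factor of midbrain GABAergic neurons, was at least 4.18-fold higher in CHIR_11-16. En2 differed by 1.69 and Tal2 by 3.18. The dopaminergic genes Th and Pitx3 differed by -0.21 and -0.36. Of 22 HOX genes, which pattern the hindbrain and spinal cord, 7 passed the filter and 15 did not. Hoxc4 was at least 3.52-fold and Hoxd8 at least 2.26-fold higher in CHIR_11-16, while Hoxa4 and Hoxb6 differed by 0.10 and -0.02. Only 1 of the 7 was above background on all 8 culture arrays and 4 were dim on both WiBi_0-16 arrays alone, so no count or sum over them is drawn on.

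**Figure D4:**
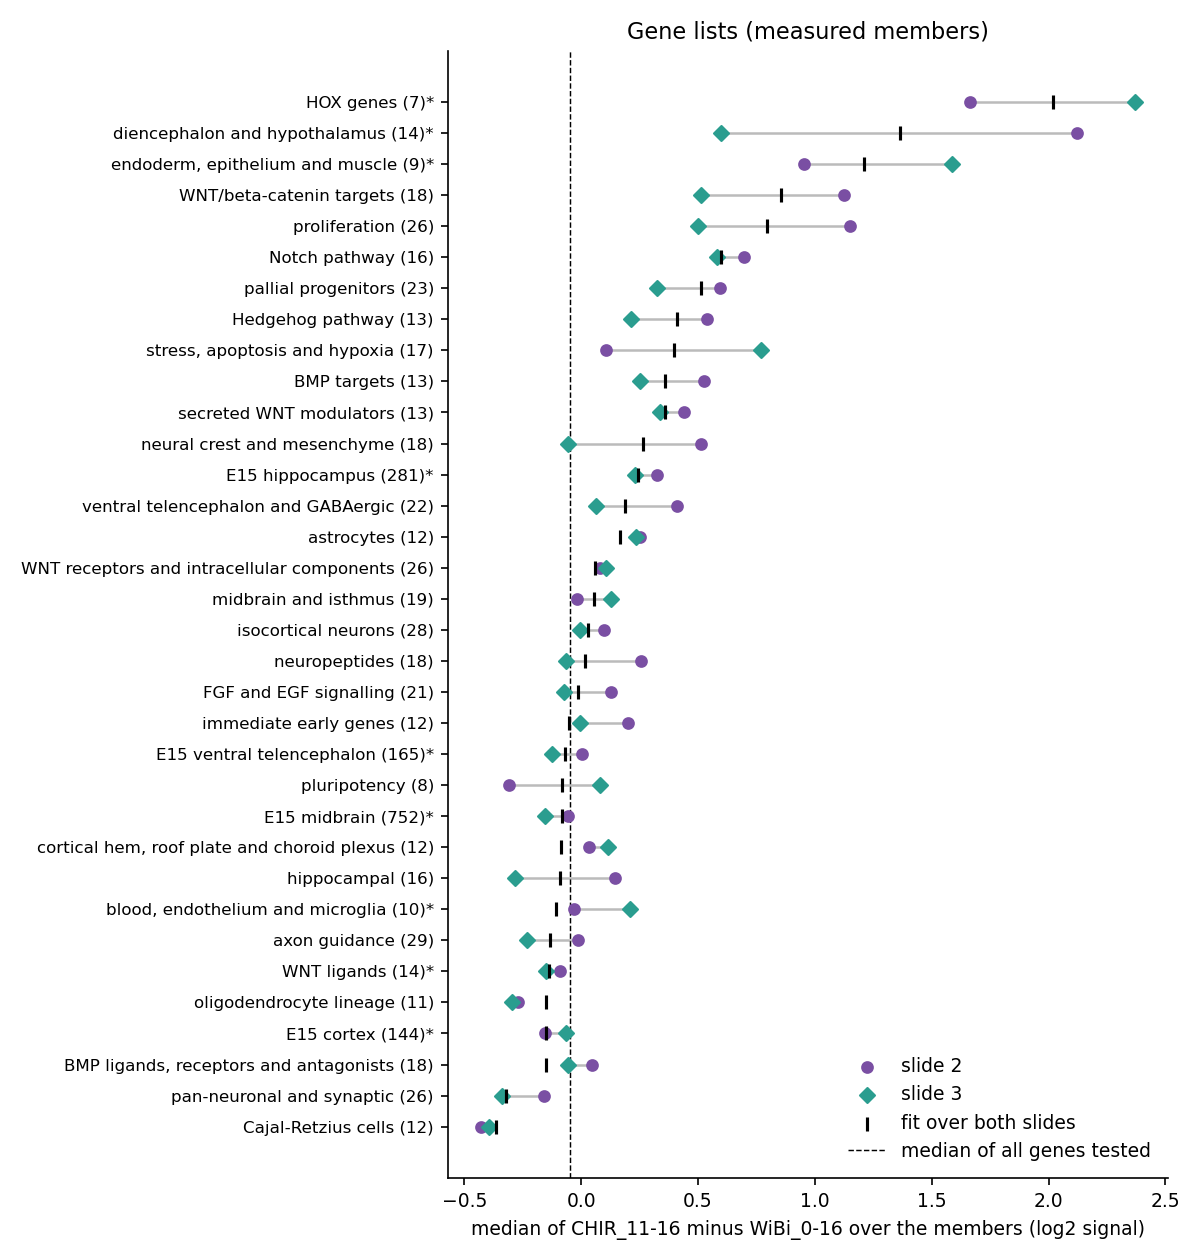
Median difference between CHIR_11-16 and WiBi_0-16 over the measured members of each list, in log2 signal, on slide 2 (purple circles), slide 3 (green diamonds) and in the fit over both (black ticks), with the number of measured members in brackets and a dashed line at the median of all genes. An asterisk marks lists in which under 75% of the measured members were above background on all 8 culture arrays, whose medians describe only members that passed the filter. Proliferation lies at 0.79 and pan-neuronal and synaptic genes at -0.32.

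In the oligodendrocyte lineage, 4 of the 11 measured genes were lower in CHIR_11-16 at an unadjusted p under 0.05, beside 10.6% of all genes. The trended prior called 3 of the 11 lower and normexp with quantile normalization 1. The deposited values and the restriction to genes above background on all 8 culture arrays called 0. Olig1, a lineage factor, had levels of -1.29 and 0.07 in CHIR_11-16, against 1.34 and 2.65 in WiBi_0-16, a difference of -2.61 ± 0.47 (limma adjusted p = 0.0979). Olig2, its partner, had levels of -0.92 and -0.07 in CHIR_11-16, against 0.16 and 1.42 in WiBi_0-16, a difference of -1.28. Gpr17, a receptor of oligodendrocyte precursors, had levels of -6.10 and -4.81 in CHIR_11-16, against -3.43 and -1.43 in WiBi_0-16, a difference of -3.02 ± 0.39. For these 3 genes the groups were separate although the slides differed by over 1 log2 unit in several groups. Pdgfra, the precursors' growth factor receptor, differed by -1.16, while the lineage factor Sox10 and the myelin genes Mbp and Mog differed by -0.05, -0.05 and -0.15, and Cnp by 0.47. Of 12 genes 11 were measured, 1 was higher and 7 lower on both slides, and the median was -0.15.

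Astrocyte markers were split. S100b, a calcium-binding protein, had levels of -1.26 and -1.56 in CHIR_11-16, against -4.82 and -4.79 in WiBi_0-16, a difference of 3.40 ± 0.60 (limma adjusted p = 0.0973), or 10.5-fold. Gja1, the gap junction protein connexin 43, had levels of -0.38 and -0.40 in CHIR_11-16, against -2.05 and -2.02 in WiBi_0-16, a difference of 1.65. The groups were far apart for both genes, yet Gfap, Slc1a2 and Apoe differed by -0.46, -0.48 and -0.72, and Aqp4 by less than 0.01. All 12 were measured, with 5 higher and 3 lower on both slides and a median of 0.16. The list's summed linear level was 49.95 and 63.97 in CHIR_11-16, against 41.20 and 44.90 in WiBi_0-16.

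Inhibitory and peptidergic neurons were represented by Npy, neuropeptide Y, with levels of -4.23 and -3.22 in CHIR_11-16, against -2.06 and -1.18 in WiBi_0-16, a difference of -2.11 ± 0.27 (limma adjusted p = 0.0762). Its arrays did not overlap between groups. Sst and Penk differed by -1.21 and -1.54 and Pomc by 1.24. The greatest difference of the neuropeptide list was that of Trh, thyrotropin-releasing hormone, with levels of -0.60 and 1.41 in CHIR_11-16, against -2.33 and -4.53 in WiBi_0-16, a difference of 3.84. Its arrays were wide apart within both groups, and its adjusted p was 0.298. Over 18 measured neuropeptide genes of 19 the median was 0.02, with 7 higher and 5 lower on both slides. The GABA-synthesising enzyme gene Gad1 differed by -0.18 and the ventral factor Dlx2 by 0.50, with overlapping groups. Lhx6, of medial ganglionic eminence interneurons, differed by -0.76 at its brightest probe and by 1.55 at another. Of 24 ventral telencephalon and GABAergic genes 22 were measured, with 13 higher and 4 lower on both slides and a median of 0.19, which changed sign under 2 of the alternatives.

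Hedgehog pathway genes had a median of 0.41 over all 13, with 7 higher and 4 lower on both slides. The ligand gene Dhh had levels of -3.19 and -3.04 in CHIR_11-16, against -5.09 and -4.81 in WiBi_0-16, a difference of 1.84 ± 0.20 (limma adjusted p = 0.0685). The lowest signals well above background on those WiBi_0-16 arrays were -5.91 and -5.15, not far below Dhh. Over the alternatives its difference ran from 0.93 to 2.07. The factors Gli1 and Gli2 differed by 1.11 and 0.89, Shh by -0.33, and the transducer Smo by 1.05 with -0.68 at its other probe. In FGF and EGF signalling 21 of 22 genes were measured, with 8 higher and 9 lower on both slides and a median of -0.01 that changed sign under 7 alternatives. Fgf15, the mouse FGF of early forebrain progenitors, had levels of 0.70 and 1.30 in CHIR_11-16, against -1.43 and -0.42 in WiBi_0-16, a difference of 1.93. Dusp6, Etv5 and Spry2, known as targets of FGF signalling, differed by -0.55, -0.68 and -0.56, while Spry1, of the same family as Spry2, differed by 0.38. The receptor gene Egfr differed by -0.31. Of 29 axon guidance genes 6 were higher and 15 lower on both slides, with a median of -0.13. Robo3, a Slit receptor family member of commissural axons, and Cntn2 differed by 2.21 and 1.90, with 0.60 at the other probe of Cntn2, while Slit3 differed by -0.62.

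Markers of cells outside the neural lineage were dim or uneven. Of 18 measured neural crest and mesenchyme genes 5 were higher and 1 lower on both slides, with a median of 0.27 that changed sign under 1 alternative. Foxc1, a mesenchymal forkhead factor, had levels of -2.86 and -2.44 in CHIR_11-16, against -3.97 and -3.75 in WiBi_0-16, a difference of 1.21 ± 0.14 (limma adjusted p = 0.0685). Tfap2a, a neural crest factor, differed by 2.12. Of 18 endoderm, epithelium and muscle genes 9 passed the filter, among them Epcam, at least 3.16-fold higher in CHIR_11-16. The filter left out Sox17, Gata6, Afp and Alb. Of 15 blood, endothelium and microglia genes 10 passed, and the endothelial and microglial genes Cdh5, Tek and Cx3cr1 did not. The summed linear level of that list, in which the brightest members weigh most, was 31.00 and 34.54 in CHIR_11-16, against 51.49 and 43.47 in WiBi_0-16. The median over the 10 was -0.11 and changed sign under 3 alternatives. Of the 10, 3 were dim on both WiBi_0-16 arrays alone, and the median was -0.19 among the 6 above background on all 8 culture arrays. Because a gene could pass through the group where it was high, no count by direction over these genes is drawn on. For neural crest and mesenchyme the summed level was 9.52 and 5.96 in CHIR_11-16, against 6.95 and 7.32 in WiBi_0-16. Of 13 pluripotency genes 8 passed and Pou5f1 did not, with a median of -0.08. Stress, apoptosis and hypoxia genes had a median of 0.40, with 0.11 on slide 2 and 0.77 on slide 3, and 10 higher and 3 lower on both slides. Immediate early genes had a median of -0.05, with Ier2 at 1.07 and Egr4 at -0.92. The part of these markers in the other differences was not tested.

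The cultures of WiBi_0-11, which had the same inhibitors until day 11, were set beside both groups. Both differences share the WiBi_0-11 arrays and so are not independent. Limma called 4 genes (0.0157%) between CHIR_11-16 and WiBi_0-11, with 3171 (12.4%) at an unadjusted p under 0.05, and 3 genes (0.0117%) between WiBi_0-16 and WiBi_0-11, with 2769 (10.8%). All were lower than in WiBi_0-11: Il23r, a cytokine receptor gene, in CHIR_11-16, and Phf8-ps and a pair of probes without a symbol in each comparison. Sp5 differed from WiBi_0-11 by 3.13 in CHIR_11-16 and by -2.25 in WiBi_0-16, and Fst by 1.28 and -1.60. Frat1 differed from WiBi_0-11 by -2.08 in CHIR_11-16 and by -0.04 in WiBi_0-16, and Neurog2 by 1.99 and -0.42. Gpr17 differed by -2.81 in CHIR_11-16 and by 0.21 in WiBi_0-16. Col22a1 showed the reverse weighting, with 1.53 in CHIR_11-16 and -2.59 in WiBi_0-16, as did Fzd7 with 0.07 and -0.88. The median over proliferation genes was 0.48 for CHIR_11-16 and -0.31 for WiBi_0-16, and over pan-neuronal and synaptic genes -0.24 and 0.02.

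**Figure D5:**
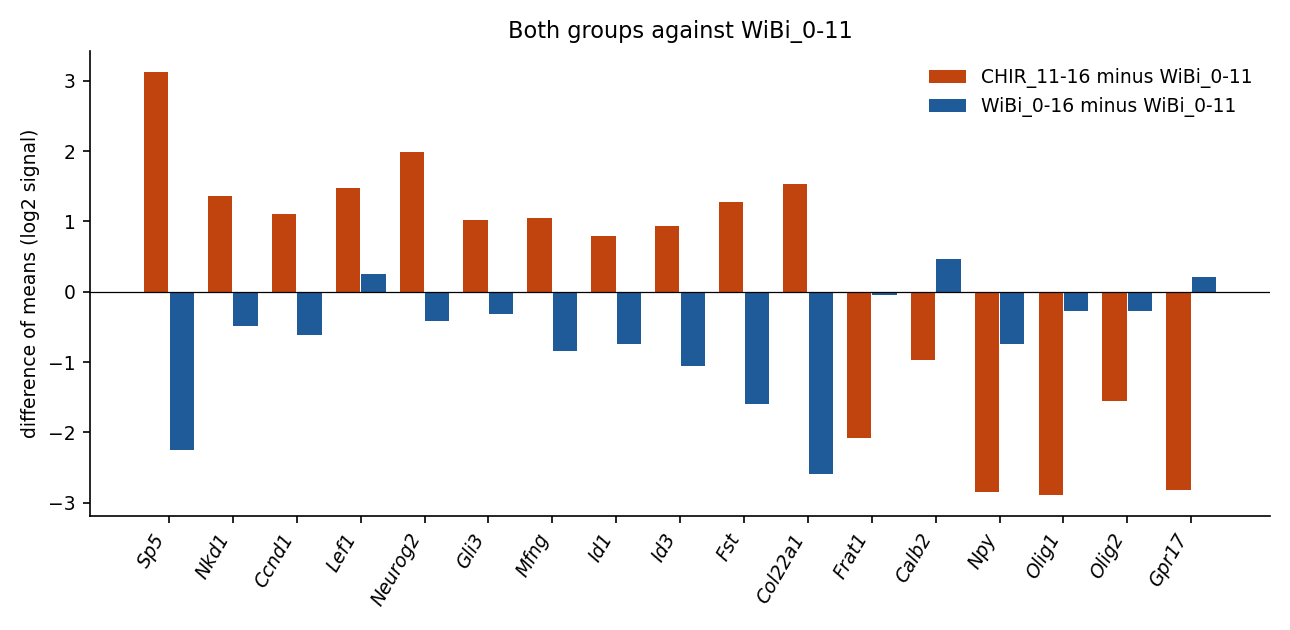
Difference from WiBi_0-11 of CHIR_11-16 (red bars) and of WiBi_0-16 (blue bars), in log2 signal, for genes chosen after their values were seen. Both bars of a gene share the WiBi_0-11 arrays. Frat1 and Gpr17 lie well below 0 in CHIR_11-16 and near 0 in WiBi_0-16, whereas Col22a1 is lowest in WiBi_0-16.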

How the data were processed

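Per the labels, the arrays were 1-colour (Cy3) Agilent mouse arrays. The files name design 028005 and build mm9 for the probes, which are 60 bases long. The deposited intensity values came, per the file headers, from Agilent Feature Extraction 10.7.3.1, which subtracted background from the processed signal. The submitters' processing notes name version 9.1 and limma. The deposited series table holds log2 values that the authors normalized across arrays, with column medians of 6.21 to 6.22 for the culture arrays. Its scale and direction were those of the scanner values of the same array (r = 0.996 to 0.999), and it served as an alternative.

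Processed signals were divided by the 75th percentile of non-control spots of the array and put on the log2 scale, after outlier-marked spots were left out. Probes stayed in if some culture group had them well above background on each of its arrays: 36430 of 55681 probes, with 223 dropped for want of an unmarked spot. The brightest kept probe stood for each of 25538 genes, of which 15404 carried a symbol. Limma 3.58.1 (R 4.3.3; lmFit and eBayes) was fitted over all 8 culture arrays, with slide as a block, and p-values were adjusted by Benjamini-Hochberg over all genes, 2-sided. As a check on pairing by replicate number, deviations from the group means correlated between arrays of the same slide, with r from 0.579 to 0.667 in the 6 group pairs. Tables and figures used Python 3.11.15 with pandas 2.3.3, numpy 2.4.6 and matplotlib 3.10.9.

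The genes named are up to 4 members of each list with the smallest p, 30 anchor genes and, with under 10 genes called each way, the 8 genes with a symbol of smallest p in each direction. Others were named after their values were seen, and some genes that the rule names are not reported here. The comparison and lists were chosen with earlier results of these data known. The alternatives were the slide block, array median or quantile scaling, normexp (offset 50) with quantile normalization on median signals, the deposited table, a trended prior, other probe filters, the mean over probes, the 4 arrays alone and leaving out each array.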

Additional observations from a re-analysis of the deposited data

How the results depend on the processing

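The count of 0 genes called was also 0 without the replicate block, with array median or quantile scaling, with the mean over probes, without the filter on dim probes and with only the 4 arrays, with or without the replicate block, so pairing by slide changed no call there. It was 128 with the deposited table (60.9% higher in CHIR_11-16), 475 with normexp and quantile normalization (60.8%), 1423 with a trended prior variance (72.1%) and 162 of 22563 genes above background on all 8 culture arrays (56.8%). Without 1 array it ran from 0 to 1, the 1 gene being called without WiBi_0-16 replicate 2. Across those 4 settings 1446 genes passed at least 1 and 94 passed all 4. Array median scaling moved the median of all genes to 0.09, from -0.05 in the main fit. The genes named for the smallest p-values kept their sign under every setting. Among genes picked by the naming rule the sign turned at 7, of which Lhx6, at -0.76 in the main fit, was the farthest from 0. The 7 do not count the other genes given above. Array median scaling raised every gene by the same amount, so others just below 0, such as Emx1, Dcx and Rbfox3, turned as well. Lhx2 was 0.0030 with array median scaling and ran from -0.38 to 0.13 without 1 array. Fezf2 was 0.12 with array median scaling and ran from -0.23 to 0.21, with 0.19 without WiBi_0-16 replicate 1. Wnt7a was 0.0398 with array median scaling, 0.0168 with the deposited table and 0.0277 with normexp, and ran from -0.19 to 0.0089, with 0.000231 without WiBi_0-16 replicate 2. Bcl11b was -0.0074 with the deposited table, -0.0053 with normexp and -0.13 with the mean over probes, and ran from -0.16 to 0.24. Lhx6 was 0.40 with the mean over probes. Gad1 ran from -0.53 to 0.18 and Dppa4 from -0.52 to 0.0821, with 0.0342 without WiBi_0-16 replicate 2. The cause was not tested, except that Lhx6 and Bcl11b have probes of opposite sign. The culture files hold median but no mean spot signals, so normexp used the median. The main fit had 3 residual degrees of freedom with 2 arrays a group. A fit without 1 array has fewer, and the lone array it leaves in a group is assumed to vary like the others.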

Other observations

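Further genes were among the 94 that passed under all 4 settings with calls given above, of which 52 were higher and 42 lower in CHIR_11-16. They are named after their values were seen. Gadd45g, a growth arrest gene active in newborn neurons, had levels of 4.47 and 4.48 in CHIR_11-16, against 3.22 and 3.05 in WiBi_0-16, a difference of 1.34. Its relative Gadd45a had levels of 0.80 and 0.74 in CHIR_11-16, against -0.45 and -0.73 in WiBi_0-16, a difference of 1.36. Celsr1, a planar cell polarity cadherin, differed by 1.64, and the cell adhesion gene Vcam1 by 2.41. Serpinf1, a secreted neurotrophic factor of the serpin family, differed by 2.29. The centromere histone gene Cenpa and the meiotic recombination gene Mnd1 differed by 1.44 and 1.74. The replication-dependent histone genes H2bc18, H3c13 and H3c11 differed by 1.56, 1.17 and 1.34, but near-identical copies of such genes may share probes.

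On the lower side of the same 94 genes, Grin2a, an NMDA receptor subunit, had levels of -3.51 and -3.93 in CHIR_11-16, against -1.73 and -2.58 in WiBi_0-16, a difference of -1.57. Cpne6, a calcium-dependent membrane protein of neurons, differed by -1.22 and Nap1l5 by -1.61. The lipid genes Srebf1, a regulator of fatty acid synthesis, and Plin2, a lipid droplet coat protein, were on the higher side, by 1.03 and 2.06. The chemosensory receptor genes Vmn1r240 and Olfr173 differed by -1.65 and -1.57, and shared the pattern over slides and E15 tissues given above for Vmn1r65. Most genes and probes on the lower side of the 94 shared that pattern too. The genes on the lower side may therefore not be separate observations.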
